A study of Mus musculus with 16 samples.

Results

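The response of mouse bone marrow derived mast cells (BMMCs) to 1 h of antigen was described by comparing 4 samples treated with IgE and antigen (IgE DNP) with 4 samples treated with IgE alone (IgE). These 8 samples of the 16 in the series received no dexamethasone, and they were chosen by their treatment label. Cells of femur and tibia marrow from male C57BL/6 mice aged 8 to 10 weeks had been cultured for 4 weeks in medium containing stem cell factor and IL3. PEP+/+ cells carry the phosphatase PEP, the product of Ptpn22, and PEP-/- cells lack it. All 8 samples were sensitised over 3 h with IgE (0.05 µg/ml by the labels, while the study's methods state another dose). The IgE DNP samples additionally received DNP at 200 ng/ml for 1 h, so no sample without IgE served as the control. There were 2 samples for each genotype and treatment, 1 from a numbered and 1 from a lettered set of titles. The study calls its replicates biological, and the sources used here do not say whether the sets came from separate animals or cultures, so the p-values measure the spread between these samples.

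Mast cells carry the high-affinity IgE receptor, Fc epsilon RI. Multivalent antigen that crosslinks the bound IgE sets off Lyn and Syk tyrosine kinase signalling, calcium entry and the MAP kinase, NF-kB and NFAT pathways. The cells then release stored granule contents such as histamine and proteases, make prostaglandins and leukotrienes from arachidonic acid, and transcribe cytokine and chemokine genes. Genes that are transcribed within the first hour without new protein synthesis are called immediate early genes, and many of them encode transcription factors.

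The reads assigned to genes numbered between 9637647 and 20547141 per sample, and levels are given as CPM, the count of a gene scaled to a common library size after normalisation by the trimmed mean of M values (TMM). All 13 protein-coding genes of the mitochondrial genome were listed at 0 in every sample. Where values of every sample are given below, the numbered set stands before the lettered set for each genotype and treatment. Ptpn22, the deleted gene, was at 16.1 and 11.6 CPM in PEP+/+ IgE, 0 and 0.0527 CPM in PEP-/- IgE, 81.5 and 107 CPM in PEP+/+ IgE DNP and 1.42 and 3.1 CPM in PEP-/- IgE DNP. The residual reads in PEP-/- cells stayed under the lowest PEP+/+ level, so the genotype labels were borne out. The summed level of 15 mast cell markers was 75500 to 85190 CPM in IgE and 86680 to 104900 CPM in IgE DNP, taken with TMM only. Their median log2 fold change was 0.17 with TMM and -0.17 with library totals, so its sign depended on the scaling. Of these markers 4 were called higher, Hdc, Slc18a2, Srgn and Mcpt4, and 2 lower, Kit and Mitf. The shares over all tested genes were 25.1 and 25.4 percent. Among the genes defining mast cells, Fcer1a, the ligand-binding chain of the IgE receptor, went from 6926 to 7258 CPM and Cpa3, a granule carboxypeptidase, from 36092 to 40620 CPM, and neither was called (both turned lower with library totals). The summed level of the lymphocyte list was 0.927 to 4.63 CPM, that of the neutrophil list 3.64 to 8.44 CPM, that of the erythroid list 8.96 to 18.7 CPM, that of the dendritic cell list 11.6 to 31.3 CPM and that of the eosinophil list 13.8 to 29.4 CPM over the 8 samples. The macrophage list summed to 19.6 to 97.4 CPM in IgE and 13.8 to 74.8 CPM in IgE DNP, of which Ccr2, a chemokine receptor, took most. C1qa, Mrc1, Elane, Epx and Cd3e, listed as markers of macrophages, neutrophils, eosinophils and lymphocytes, had no read in any of the 8 samples. Other members of these lists had enough reads to be tested. They were 3 of 13 for macrophages, 3 of 11 for neutrophils, 3 of 9 for eosinophils and 1 of 13 for lymphocytes. Megakaryocyte markers, chiefly Itga2b, gave sums of 2355 to 3831 CPM in IgE and 2305 to 3910 CPM in IgE DNP, and basophil markers, chiefly Gzmb, 1979 to 3462 and 3450 to 5912 CPM. The part of such cells in the changes described below was not tested. In bulk RNA, a change in the share of a cell type cannot be told apart from a change in RNA per cell.

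Antigen changed the level of 6412 of 12709 tested genes (50.5 percent) at an adjusted p below 0.05 in edgeR's quasi-likelihood test, with genotype and replicate set as terms. Of these, 3190 were higher (25.1 percent) and 3222 lower (25.4 percent), and such genes are said below to have risen or fallen. The counts of every list below stand beside these shares. The large changes were mostly increases. A log2 fold change of at least 1 was reached by 931 genes that rose (7.33 percent of those tested) and 612 that fell (4.82 percent), and one of at least 3 by 189 that rose and 8 that fell. All 4 differences between antigen and IgE samples of the same genotype and set had the same sign for 3064 of the genes that rose and 3086 of those that fell. The 4 IgE DNP values lay entirely outside the range of the 4 IgE values for 1509 and 1355 of them. The same comparison without the set as a term called 1293 genes higher and 1077 lower, and 53 of the 266 genes taken up by name lost their call. The median log2 fold change over all genes was -0.00 with TMM, and it moved by -0.34 when libraries were scaled to their totals alone, with 1503 genes then called higher and 7032 lower (17.6 percent higher, against 49.8 percent). Changes are therefore given relative to the typical gene, and the text says where a small change turned sign with library totals.

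**Figure D1:**
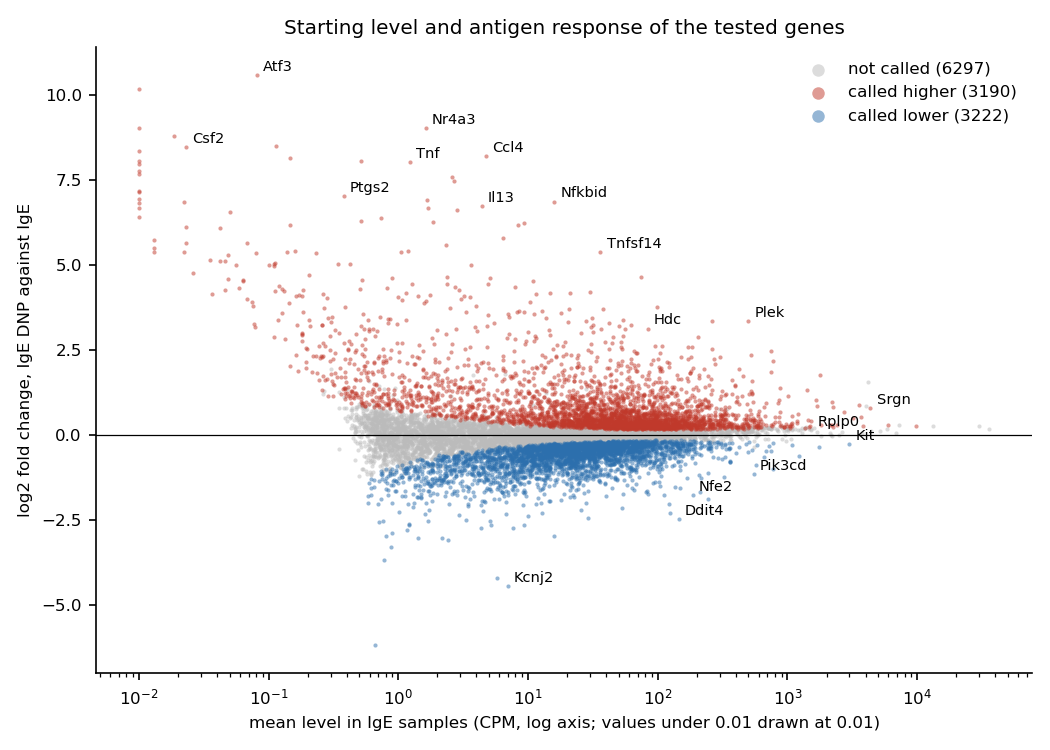
Each point is 1 of 12709 tested genes, with its mean level over the 4 IgE samples in CPM on a log axis (x, values under 0.01 drawn at 0.01) and its log2 fold change, IgE DNP against IgE (y). Genes called higher (3190, red) reach log2 fold changes above 10 from starting levels under 1 CPM, while nearly all genes called lower (3222, blue) stay above -3.

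Genes that rose strongly mostly started from very low levels, and a gene silent in IgE could enter the test only through its antigen samples. Of the 189 genes with a log2 fold change of at least 3, 105 (55.6 percent) had a mean below 1 CPM in IgE, against 991 (7.80 percent) of all tested genes, as the plot of starting level against change shows. Their share of the reads on genes went from between 0.184 and 0.278 percent in IgE to between 2.70 and 3.06 percent in IgE DNP. The 931 genes with a log2 fold change of at least 1 held 4.71 to 5.31 percent of the reads in IgE and 13.6 to 15.5 percent in IgE DNP. In contrast, the 612 genes that fell by at least 1 held 1.20 to 1.36 percent in IgE and 0.386 to 0.455 percent in IgE DNP.

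The AP-1 family, leucine zipper factors that pair to bind DNA, responded broadly. Of 16 tested members 13 rose and 1 fell, with a median log2 fold change of 1.71. Atf3 (ENSMUSG00000026628, chromosome 1, 191170296 to 191218039, GRCm38), a stress-inducible repressor of this family, was at 0.0747 and 0 CPM in PEP+/+ IgE, 0.0927 and 0.158 CPM in PEP-/- IgE, 116 and 201 CPM in PEP+/+ IgE DNP and 97.1 and 187 CPM in PEP-/- IgE DNP. Every IgE DNP value lay above every IgE value, and the log2 fold change was 10.57 ± 0.18 (SE), the largest of all tested genes (adjusted p = 8.24e-14). Fosb, a Fos family member, was at 5.67 and 1.24 CPM in PEP+/+ IgE, 2.6 and 0.843 CPM in PEP-/- IgE, 583 and 389 CPM in PEP+/+ IgE DNP and 515 and 381 CPM in PEP-/- IgE DNP, with no overlap between treatments and a log2 fold change of 7.58 ± 0.23 (SE). At 1 h, Fos itself rose only from 0.585 to 5.87 CPM (3.38). Maff, a small Maf protein, rose by 5.41 and Fosl1 by 4.99. The Jun proteins started higher, and Jund (from 91.5 to 437 CPM), Junb (from 58.5 to 225 CPM) and Jun (from 35.2 to 102 CPM) rose by 2.21, 1.88 and 1.53. Maf, a large Maf protein, was the member that fell (-1.41).

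All 9 genes of the EGR and NR4A list rose, with a median of 4.99. NR4A proteins are orphan nuclear receptors. Nr4a3 (chromosome 4, 48045153 to 48086447) was at 2.54 and 1.78 CPM in PEP+/+ IgE, 1.3 and 0.896 CPM in PEP-/- IgE, 856 and 973 CPM in PEP+/+ IgE DNP and 515 and 967 CPM in PEP-/- IgE DNP, so the groups were far apart and the log2 fold change was 9.02 ± 0.21 (SE; adjusted p = 2.65e-12). Nr4a1 rose from 3.65 to 118 CPM and Nr4a2 from 3.21 to 54.3 CPM. Egr3, a zinc finger factor, was at 20.2 and 2.67 CPM in PEP+/+ IgE, 7.51 and 2.95 CPM in PEP-/- IgE, 874 and 210 CPM in PEP+/+ IgE DNP and 863 and 314 CPM in PEP-/- IgE DNP. The numbered set was higher than the lettered set under both treatments, and the rise was seen in each of the 4 pairs (6.16 ± 0.25). Egr2 rose from 0.737 to 58.8 CPM and Egr1 from 8.2 to 99 CPM. Egr4 had no read in any IgE sample and a mean of 2.43 CPM in IgE DNP, at least 48-fold higher when the IgE group is set at 3 reads over its 4 libraries. Nab1 and Nab2, corepressors of EGR proteins, rose by 0.74 and 1.26.

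Among other immediate early genes, 20 of 24 rose and 3 fell (median 1.52). Gadd45b, a stress sensor that binds MAP kinase kinases, was at 3.73 and 2.93 CPM in PEP+/+ IgE, 2.6 and 2 CPM in PEP-/- IgE, 225 and 309.7 CPM in PEP+/+ IgE DNP and 204 and 353 CPM in PEP-/- IgE DNP, a log2 fold change of 6.61 ± 0.18 (SE). Arc rose by 4.71, the salt-inducible kinase Sik1 by 4.56 and the nuclear factor Csrnp1, which overlaps Cx3cr1 on its own strand, from 14.7 to 264 CPM. Abundant members moved less in log2 terms, as for Ier3 (from 537 to 1308 CPM) and Id2 (from 394 to 1082 CPM). Id3, Csrnp2 and Tiparp fell by 1.42, 0.99 and 0.53. The 11 tested Kruppel-like factors, zinc finger proteins that bind GC-rich promoters, all rose, between 0.41 for Klf3 and 2.95 for Klf5 (median 0.96). Klf10 (from 43.3 to 149 CPM) and Klf9 (from 9.93 to 35.4 CPM) were the largest changes above 5 CPM, and the Klf9 values of the treatments overlapped with the numbered set higher throughout.

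The NF-kB system responded at the level of subunits and inhibitors alike. Of 23 genes 18 rose and 2 fell, with a median of 1.98. Nfkbid, a nuclear inhibitor-like protein that modulates NF-kB target genes, was at 11.3 and 21.6 CPM in PEP+/+ IgE, 9.37 and 21.3 CPM in PEP-/- IgE, 1323 and 2491 CPM in PEP+/+ IgE DNP and 1130 and 2438 CPM in PEP-/- IgE DNP. It thus went from a low to a high level in each pair (6.86 ± 0.10 (SE); adjusted p = 1.43e-14). Tnip3, a binding partner of A20, was at 0.523 and 0.533 CPM in PEP+/+ IgE, 0.464 and 0.527 CPM in PEP-/- IgE, 70.1 and 198 CPM in PEP+/+ IgE DNP and 68.2 and 209 CPM in PEP-/- IgE DNP, with higher antigen values in the lettered set (8.07 ± 0.16). Nfkbia, the classical inhibitor, rose from 20.7 to 282 CPM and Tnfaip3, which encodes A20 itself, from 49.8 to 462 CPM. Among the subunits Relb rose by 3.09, Nfkb2 by 2.74, Rel by 2.65, Nfkb1 by 1.98 and Rela by 1.25. The nuclear cofactor Bcl3 rose by 3.87, and the upstream kinase Map3k8 from 3.98 to 52.3 CPM. Ikbkg, the regulatory subunit of the IkB kinase complex, was not called (-0.02). Ikbke and Cyld fell by 0.55 and 0.34.

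Members of the calcineurin and NFAT list went in both directions, with 4 of 11 higher and 2 lower (median 0.07, -0.27 with library totals). Over all tested genes 25.1 percent were higher and 25.4 percent lower. Nfatc1, which has an inducible promoter in lymphocytes, was at 109 and 73.2 CPM in PEP+/+ IgE, 111 and 91 CPM in PEP-/- IgE, 599.5 and 522 CPM in PEP+/+ IgE DNP and 571 and 621 CPM in PEP-/- IgE DNP, a rise of 2.61 ± 0.10 (SE). Nfatc2 fell from 49.3 to 28.3 CPM and Nfatc3 from 67.2 to 50.1 CPM, so that the 3 expressed calcium-regulated NFAT genes did not move together. Rcan1, an inhibitor of calcineurin, rose from 19 to 72 CPM.

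Interleukin and colony stimulating factor genes had the highest median of the functional lists after EGR and NR4A factors. Of 39 listed genes 19 passed the filter on low counts, 16 of these rose and 2 fell, with a median of 3.70. A gene that is silent in IgE passed the filter only if antigen raised it, so these counts cover the detected members. Il13, a type 2 cytokine that drives mucus production and airway reactivity (chromosome 11, 53631324 to 53634702), was at 5.23 and 5.15 CPM in PEP+/+ IgE, 3.8 and 3.37 CPM in PEP-/- IgE, 632 and 721 CPM in PEP+/+ IgE DNP and 271 and 325 CPM in PEP-/- IgE DNP. All IgE DNP values were above all IgE values, the PEP-/- values were the lower ones within each set and treatment, and the log2 fold change was 6.74 ± 0.13 (SE; adjusted p = 4.21e-13). Il6, an inflammatory cytokine, rose from 30.2 ± 4.19 to 565 ± 175 CPM (SD, n = 4; 4.20). Csf1 and Lif rose from 37.9 to 485 CPM and from 54 to 399 CPM. Csf2, the gene of GM-CSF, had 1 read in the 4 IgE samples together and 3.34 to 22.0 CPM in IgE DNP, a ratio of 509 (90.9 to 20154), with a 95 percent interval that covers counting error only. Il33, an alarmin of the IL1 family, likewise had 1 read in IgE and 8.19 to 20.3 CPM in IgE DNP. Il1a rose from 0.518 to 42.9 CPM and Il1b from 1.27 to 26.7 CPM. Il9 and Il5 had no read in IgE, and means of 2.97 and 0.847 CPM in IgE DNP put them at least 56.6-fold and 14.5-fold higher. Il4, a type 2 cytokine as well, rose only from 14.4 to 23.2 CPM (0.66). The members that fell were Il15 (-1.66) and Il16 (-1.74). Among the untested members Il3 had 0 reads in IgE and 0 to 6 in IgE DNP, and Il10 0 and 1 to 4.

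Within the TNF superfamily, 19 of 36 listed genes were tested, of which 11 rose and 5 fell (median 1.16). As for the interleukins, a gene silent in IgE passed the filter only if antigen raised it. The shares over all tested genes were 25.1 percent higher and 25.4 percent lower. Tnf (chromosome 17, 35199381 to 35202007) was at 1.64 and 1.87 CPM in PEP+/+ IgE, 0.835 and 0.579 CPM in PEP-/- IgE, 436 and 477 CPM in PEP+/+ IgE DNP and 159 and 189.7 CPM in PEP-/- IgE DNP. The groups were separated widely, the PEP-/- samples had the lower values within each set and treatment, and the log2 fold change was 8.01 ± 0.11 (SE; adjusted p = 1.43e-14). Tnfsf14, the ligand LIGHT, was at 35.3 and 46.1 CPM in PEP+/+ IgE, 31.2 and 32 CPM in PEP-/- IgE, 1197 and 1706 CPM in PEP+/+ IgE DNP and 1288 and 1797 CPM in PEP-/- IgE DNP (5.37 ± 0.12). Both genotypes reached similar levels within each set. The costimulatory receptor Tnfrsf9 rose from 8.59 to 109 CPM, and Tnfrsf12a, the receptor of TWEAK, from 7.11 to 75.9 CPM. All 5 genes that fell were receptors, from Ltbr (-0.42) to Tnfrsf21 (-0.92).

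Of 15 tested chemokine genes 12 rose and 0 fell, with a median of 2.30, and 14 of the 29 listed were too low to be tested. Their summed level was 223 to 363 CPM in IgE and 2582 to 4573 CPM in IgE DNP. Ccl4, an inflammatory chemokine, was at 5 and 5.07 CPM in PEP+/+ IgE, 4.91 and 3.85 CPM in PEP-/- IgE, 1353 and 1566 CPM in PEP+/+ IgE DNP and 896 and 1751 CPM in PEP-/- IgE DNP, a log2 fold change of 8.21 ± 0.19 (SE). Ccl3, an inflammatory chemokine too, was at 11.9 and 6.31 CPM in PEP+/+ IgE, 12.1 and 6.74 CPM in PEP-/- IgE, 1023 and 723 CPM in PEP+/+ IgE DNP and 489 and 582 CPM in PEP-/- IgE DNP (6.24 ± 0.20). For both genes every IgE DNP value was above every IgE value. The monocyte attractants Ccl7 (from 2.69 to 490.2 CPM; 7.45) and Ccl2 (from 181 to 922 CPM; 2.30) and the CCR8 ligand Ccl1 (from 1.71 to 185 CPM; 6.66) rose as well. Ccl17 was not called (0.60).

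Levels of different genes were compared only after division by the exon length of the gene. On that scale of CPM per kb of exon, the IgE DNP means were 2108 for Ccl4, 919.5 for Ccl3, 811 for Tnfsf14, 612 for Ccl7, 404 for Il13 and 192 for Tnf, against 7.13, 12.1, 19.6, 3.36, 3.64 and 0.751 in IgE. For scale, the IgE receptor chain Fcer1a was at 7272 CPM per kb in IgE DNP. Ccl4 was thus the most abundant of these 6 induced mediator transcripts, and below Fcer1a.

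Among 28 listed growth factor genes 16 were tested, of which 10 rose and 4 fell (median 1.00). Here too, a gene silent in IgE passed the filter only if antigen raised it. Over all tested genes 25.1 percent were higher and 25.4 percent lower. Hbegf, a ligand of the EGF receptor, was at 2.31 and 3.64 CPM in PEP+/+ IgE, 1.48 and 2.11 CPM in PEP-/- IgE, 44 and 72.3 CPM in PEP+/+ IgE DNP and 33.9 and 55.1 CPM in PEP-/- IgE DNP, with separated groups (4.45 ± 0.11). Pdgfa rose from 4.82 to 44.4 CPM and Vegfc from 42.5 to 142 CPM. Egf, Gdf15, Bmp2 and Vegfb fell.

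**Figure D2:**
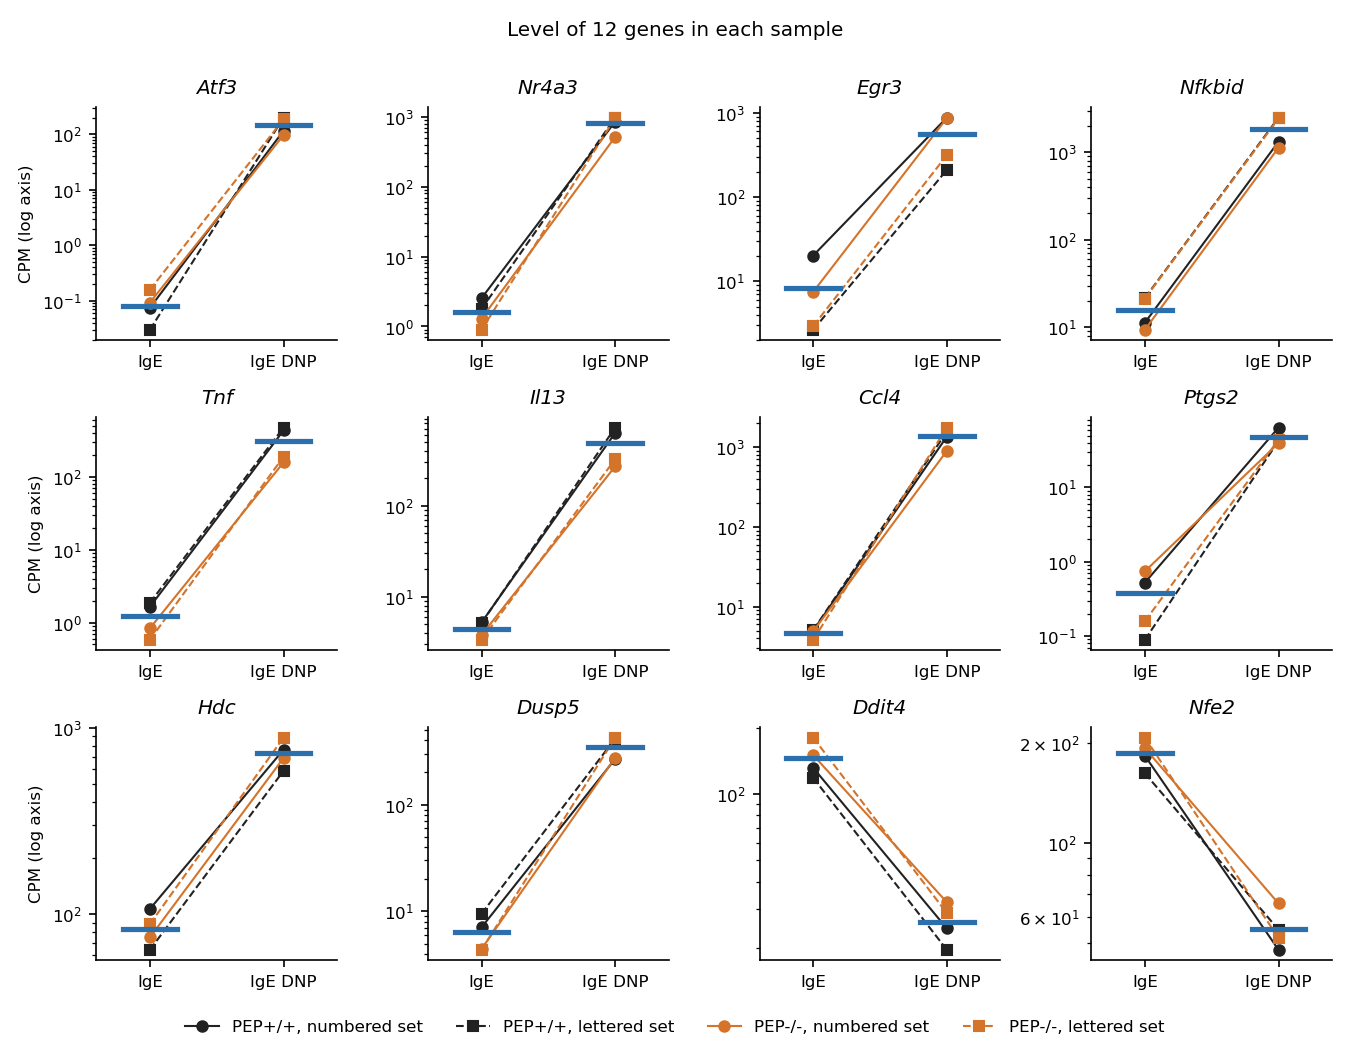
Level of 12 genes in CPM (y, log axis, values under 0.03 drawn at 0.03) in IgE and IgE DNP samples (x), with lines joining samples of the same genotype and replicate set and blue bars at the mean of 4. The first 10 panels rise and the 2 last, Ddit4 and Nfe2, fall in every pair, and Egr3 shows a large offset between the sets while Tnf and Il13 show one between genotypes.

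The stretches of 120 bases before the start site are shown for some strongly induced genes, picked because they hold a searched motif. The motif is in capitals (RefSeq, GRCm38.p6, 5′ to 3′ on the strand of the gene). Tnf (chr17:35202008-35202127, minus strand) and Il13 (chr11:53634703-53634822, minus strand) hold TATAAA, the core promoter element. Il1a (chr2:129309973-129310092, minus strand) holds it together with TGAGTCA, the sequence bound by AP-1, on the opposite strand (printed as TGACTCA). Olr1 (chr6:129507166-129507285, minus strand), a scavenger receptor gene that rose from 0.146 to 38.5 CPM, holds TGAGTCA. Dusp8 (chr7:142095285-142095404, minus strand) holds TGACGTCA, the cyclic AMP response element, at 2 positions, and Dusp5 (chr19:53529025-53529144, plus strand) 2 adjoining CArG boxes, the site of serum response factor.
Tnf: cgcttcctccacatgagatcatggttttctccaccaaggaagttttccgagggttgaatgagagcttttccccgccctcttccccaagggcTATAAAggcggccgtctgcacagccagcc
Il13: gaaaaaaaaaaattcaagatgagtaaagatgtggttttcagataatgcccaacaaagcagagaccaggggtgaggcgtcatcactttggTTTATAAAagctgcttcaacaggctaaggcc
Il1a: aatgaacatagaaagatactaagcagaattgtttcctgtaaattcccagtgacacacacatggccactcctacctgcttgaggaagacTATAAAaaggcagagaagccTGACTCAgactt
Olr1: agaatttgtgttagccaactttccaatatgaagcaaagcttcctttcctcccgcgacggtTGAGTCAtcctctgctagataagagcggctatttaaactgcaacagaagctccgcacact
Dusp8: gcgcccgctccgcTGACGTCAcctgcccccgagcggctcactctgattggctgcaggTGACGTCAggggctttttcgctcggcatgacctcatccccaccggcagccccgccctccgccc
Dusp5: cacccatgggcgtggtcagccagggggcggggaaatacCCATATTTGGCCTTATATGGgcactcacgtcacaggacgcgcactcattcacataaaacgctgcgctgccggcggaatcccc
A match of letters is a description and does not show binding. The genes shown do not stand for all induced genes. Nfkb2, Nfkbia, Rel, Tnfaip3 and Il6 are among the genes that rose, hold a kappaB motif and are not shown. Il4ra and Cyld, which fell, hold it too. Atf3, Nr4a3 and Ptgs2 hold neither that motif nor any of those named for the sequences above in the windows searched. No motif was found for Csf2 either, but its window (chr11:54249850-54250149, minus strand) lies wholly before the annotated gene, which starts at 54249667. The bases next to that start were not searched.

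Over all tested protein-coding genes, 9038 of 11159 could be matched to a RefSeq window of 300 bases, 250 before and 50 after the start, and 635 of the 791 that rose by at least 1. Both strands were searched. TATAAA was in 13.1 percent of the windows of genes that rose by at least 1 and in 6.65 percent of those of all tested genes, and TGAGTCA in 7.24 and 3.40 percent. The kappaB motif was in 3.78 and 1.27 percent, the CArG box in 2.20 and 1.26 percent and TGACGTCA in 3.62 and 3.28 percent, while GGAAAA, the core bound by NFAT, was in 21.3 and 20.8 percent. Windows of the 426 matched genes that fell by at least 1 held TATAAA in 7.75 percent, TGAGTCA in 2.82 percent and the kappaB motif in 0.469 percent of cases. For the 189 genes that rose by at least 3 the check is void, since 122 of 167 coding genes (73.0 percent) had a window. Among all 32851 windows of the table, 13.6 percent held TATAAA and 5.20 percent TGAGTCA.

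Genes for stored mediators responded selectively. In the list of amine and proteoglycan storage 9 of 23 genes rose and 3 fell, with a median of 0.34 that became -0.01 with library totals. Hdc, the enzyme that makes histamine (chromosome 2, 126593667 to 126619299), was at 107 and 64.3 CPM in PEP+/+ IgE, 75 and 88.3 CPM in PEP-/- IgE, 762 and 588 CPM in PEP+/+ IgE DNP and 688 and 885 CPM in PEP-/- IgE DNP, so that every antigen value was above every IgE value (3.13 ± 0.15 (SE); adjusted p = 1.74e-09). Slc18a2, which loads amines into granules, rose from 1692 to 3061 CPM, and Srgn, the granule proteoglycan core protein, from 4351 ± 613 to 7524 ± 888 CPM (SD, n = 4). Hs3st1, a heparan sulfotransferase, rose from 88.7 to 378 CPM, while the sulfotransferase Ndst2, required for mast cell heparin, fell from 659 to 414 CPM and Xylt2 from 10.7 to 4.88 CPM. Of 15 tested granule proteases 10 rose and 0 fell (median 0.40, 0.06 with library totals). The rises above 1 in log2 were those of Gzmc (from 1.15 to 20.8 CPM) and Tpsab1 (from 6.99 to 85.5 CPM), which start low, whereas the abundant Cpa3, Cma1 and Tpsb2 were not called (0.17, 0.25 and 0.29, all of which turned sign with library totals). Granzyme, Mcpt and tryptase genes include close copies of each other, and their single values are uncertain where reads were shared.

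Among 13 genes of eicosanoid synthesis 6 rose and 1 fell (median 0.18, -0.16 with library totals). Ptgs2, the inducible cyclooxygenase COX-2, was at 0.523 and 0.0889 CPM in PEP+/+ IgE, 0.742 and 0.158 CPM in PEP-/- IgE, 63.9 and 42.3 CPM in PEP+/+ IgE DNP and 39.6 and 43.9 CPM in PEP-/- IgE DNP. No antigen value overlapped an IgE value, and the log2 fold change of 7.02 ± 0.25 (SE; adjusted p = 8.4e-11) compared with 0.66 ± 0.13 for the constitutive Ptgs1. Pla2g4a, the cytosolic phospholipase that frees arachidonic acid, fell from 50.1 to 35.1 CPM in all 4 pairs, although the set offset made the group ranges overlap. Ltc4s, which makes leukotriene C4, was not called (-0.15). Ptgds had 2 reads in the 4 IgE DNP samples and 1 in the 4 IgE samples, too few to be tested.

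Genes of the IgE receptor, its kinases and adaptors gave 15 of 51 higher and 16 lower, near the 25.1 and 25.4 percent over all tested genes (median -0.08, all tested genes -0.00). The receptor chains Fcer1a and Ms4a2 were not called (0.07, which turned sign with library totals, and -0.13). Sphk1, a sphingosine kinase, rose from 0.139 to 6.91 CPM and the adaptor Lcp2 from 331 to 751 CPM. Several genes of proximal signalling fell, among them Pik3cd, a catalytic subunit of PI3 kinase, which was at 515 and 568 CPM in PEP+/+ IgE, 517 and 590.3 CPM in PEP-/- IgE, 255 and 294 CPM in PEP+/+ IgE DNP and 222 and 223 CPM in PEP-/- IgE DNP. Every antigen value lay below every IgE value (-1.15 ± 0.08 (SE)). Pik3cg fell by 0.91, Pik3r1 by 0.88, Rasgrp1, an exchange factor of Ras, by 1.74, Cblb by 0.71, Plcg1 by 0.49 and Syk by 0.46.

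Negative regulators of MAP kinase and cytokine signalling were among the genes that rose. Of 18 dual-specificity phosphatases 13 rose and 4 fell (median 1.11). Dusp5, a nuclear phosphatase of ERK, was at 7.09 and 9.51 CPM in PEP+/+ IgE, 4.45 and 4.37 CPM in PEP-/- IgE, 268 and 415 CPM in PEP+/+ IgE DNP and 276 and 424 CPM in PEP-/- IgE DNP, with separated groups (5.80 ± 0.17 (SE)). Dusp8 had 3 reads in the 4 IgE samples together and a mean of 5.99 CPM in IgE DNP, a ratio of 111 (37.6 to 541) by counting. Dusp4 (from 3.55 to 58.4 CPM) and Dusp1 (from 1 to 16.4 CPM) rose by 4.05 and 4.05, and Dusp7 fell by 1.25. In the list of Sprouty, SPRED and SOCS inhibitors 10 of 14 rose and 0 fell (median 0.76). Errfi1, an inhibitor of EGF receptors, was at 12.2 and 7.82 CPM in PEP+/+ IgE, 9.83 and 13.7 CPM in PEP-/- IgE, 301 and 250 CPM in PEP+/+ IgE DNP and 204 and 274 CPM in PEP-/- IgE DNP. Its values separated completely (4.53 ± 0.16). Socs3 rose from 2.49 to 31.8 CPM, Spry2 from 5.44 to 52.9 CPM and the STAT5 target Cish from 68.3 to 348 CPM. RGS proteins, which speed GTP hydrolysis by G proteins, split, with 5 of 11 higher, led by Rgs16 (from 0.812 to 16.3 CPM), and 3 lower, led by Rgs14 (from 60.6 to 26.3 CPM). The shares over all tested genes were 25.1 percent higher and 25.4 percent lower.

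Factors that destabilise cytokine mRNA were also among the genes that rose. Of 20 genes 12 rose and 1 fell, with a median of 0.27 that became -0.07 with library totals. Zc3h12c, a member of the regnase family, was at 13.4 and 5.6 CPM in PEP+/+ IgE, 16.8 and 10.1 CPM in PEP-/- IgE, 262 and 126 CPM in PEP+/+ IgE DNP and 215 and 191 CPM in PEP-/- IgE DNP, well separated between treatments (4.15 ± 0.15 (SE)). Zc3h12a, regnase-1 itself, rose from 14.9 to 69.1 CPM, Zfp36, which binds AU-rich elements, from 2.75 to 7.36 CPM and Rc3h1, roquin-1, from 62.1 to 166 CPM. Among Pellino, TRAF and related ligase genes 15 of 21 rose and 4 fell (median 0.96). Trib1, a pseudokinase scaffold, was at 0 and 0.178 CPM in PEP+/+ IgE, 0.278 and 0 CPM in PEP-/- IgE, 34 and 37.2 CPM in PEP+/+ IgE DNP and 35.4 and 40.5 CPM in PEP-/- IgE DNP, and Traf1 rose from 2.92 to 55.8 CPM. Inhibitory receptors and their ligands rose in 10 of 18 cases and fell in 2 (median 0.48). Havcr2, the receptor TIM-3, was at 241 and 164 CPM in PEP+/+ IgE, 236 and 176 CPM in PEP-/- IgE, 1612 and 1206 CPM in PEP+/+ IgE DNP and 1570 and 1495 CPM in PEP-/- IgE DNP (2.86 ± 0.09), Pdcd1lg2 rose from 2.79 to 24.2 CPM and the sialic acid receptor Cd33 from 42.9 to 189.9 CPM.

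Genes of surface receptors for growth factors and cytokines rose in 13 of 32 cases and fell in 6 (median 0.12, -0.22 with library totals). Mst1r, the receptor tyrosine kinase RON, had no read in any IgE sample and 4.34 to 16.5 CPM in IgE DNP, at least 198-fold higher. Il2ra rose from 47.7 to 175 CPM and Il1r1 from 0.416 to 3.01 CPM. Kit, the stem cell factor receptor on which mast cells depend, was at 3221 and 2303 CPM in PEP+/+ IgE, 3652 and 2834 CPM in PEP-/- IgE, 2688 and 1855 CPM in PEP+/+ IgE DNP and 3045 and 2438 CPM in PEP-/- IgE DNP. It fell in each of the 4 pairs, and the set difference made the treatment ranges overlap (-0.26 ± 0.08; adjusted p = 0.0139). Il4ra fell from 1229.7 to 803 CPM. All 12 tested adenosine and nucleotide receptor genes and enzymes were called, 8 higher and 4 lower. Adora2b rose from 9.43 to 58.8 CPM and Adora2a from 29.2 to 166 CPM, both receptors that couple to stimulatory G proteins, and the ATP-gated channel P2rx7 fell from 571 to 308 CPM. In the list of calcium entry and ion channels 10 of 25 rose and 5 fell (median 0.15, -0.19 with library totals). Orai1, the pore of store-operated calcium entry, rose from 22.7 to 68.2 CPM and Orai2 fell from 73.1 to 45 CPM. The potassium channel Kcnn4 rose from 142 to 492 CPM, while the inward rectifier Kcnj2 fell to near 0, at 4.26 and 9.15 CPM in PEP+/+ IgE, 4.73 and 9.8 CPM in PEP-/- IgE, 0.771 and 0 CPM in PEP+/+ IgE DNP and 0.25 and 0.226 CPM in PEP-/- IgE DNP (-4.46 ± 0.41). Integrin and adhesion genes rose in 9 of 24 cases and fell in 1 (median 0.18, -0.15 with library totals), led by the fibronectin receptor chain Itga5 (from 52.8 to 312 CPM) and the hyaluronan receptor Cd44 (from 123 to 527 CPM). The granule exocytosis list was near balance (8 higher, 5 lower of 22), with Stx11 (1.85) and Rab3a (-1.68) at its ends. Toll-like receptors and their adaptors gave 5 higher and 3 lower of 13. The counts of the lists in this paragraph stand beside 25.1 percent higher and 25.4 percent lower over all tested genes.

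**Figure D3:**
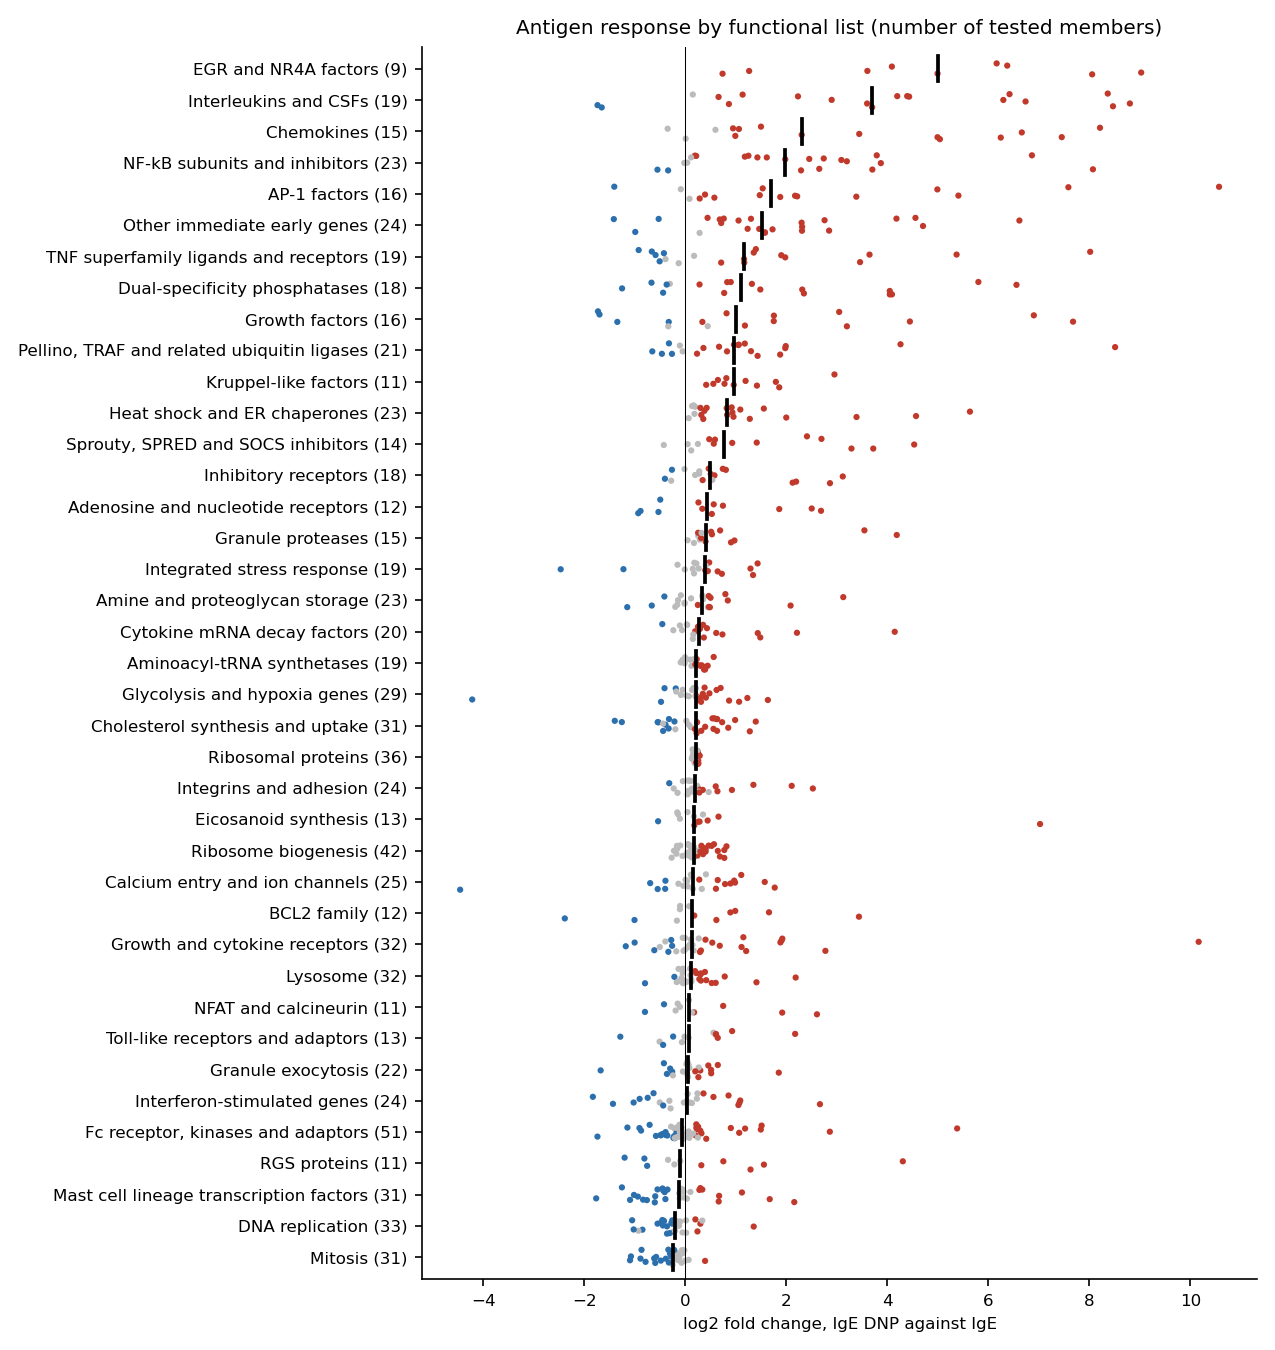
Log2 fold change, IgE DNP against IgE (x), of the tested members of 39 functional lists (y, number of tested members in parentheses), with black bars at the medians and genes called higher in red, lower in blue and not called in grey. EGR and NR4A factors and interleukins have the highest medians, and mitosis and DNA replication the lowest.

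Transcription factors of the haematopoietic and mast cell lineages were more often lower than higher, with 15 of 31 down and 8 up (median -0.12). Over all tested genes 25.4 percent were lower and 25.1 percent higher, so the share that rose was near that of all genes. Nfe2, a factor of erythroid and megakaryocytic genes, was at 183 and 162 CPM in PEP+/+ IgE, 193 and 208 CPM in PEP-/- IgE, 47.7 and 54.8 CPM in PEP+/+ IgE DNP and 65.8 and 51.8 CPM in PEP-/- IgE DNP, and all antigen values were below all IgE values (-1.77 ± 0.09 (SE)). Lyl1 fell from 215 to 90.8 CPM, and Gfi1, Lmo4, Gfi1b and Erg fell by 1.10, 1.02, 0.94 and 0.84. Mitf and Gata1, regulators of mast cell genes, fell by 0.40 and 0.55, and Gata2 was not called (-0.11). Those that rose included Cebpb (from 2.04 to 9.7 CPM) and Bhlhe40 (from 208 to 662 CPM).

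Cell cycle genes moved modestly downwards. Of 31 mitosis genes 16 fell and 1 rose (median -0.25), and of 33 replication genes 14 fell and 4 rose (median -0.21). These counts and that of the BCL2 family below stand beside 25.1 percent higher and 25.4 percent lower over all tested genes. The mitotic kinases Aurka (from 30.2 to 14.7 CPM), Ttk (from 15 to 7.59 CPM) and Plk1 (from 40.9 to 22.4 CPM) fell by 1.08, 1.10 and 0.89. Ccne1, cyclin E1, fell from 10.3 to 5.23 CPM. Pcna, the polymerase clamp, went the other way and was at 244 and 134 CPM in PEP+/+ IgE, 145 and 84.3 CPM in PEP-/- IgE, 500.5 and 327 CPM in PEP+/+ IgE DNP and 362 and 287 CPM in PEP-/- IgE DNP, above IgE in each pair (1.35 ± 0.10). In the BCL2 family 6 of 12 genes rose and 2 fell. Bcl2l11, which encodes the pro-apoptotic BIM, rose from 13.8 to 149.9 CPM and Pmaip1, NOXA, from 9.25 to 28.4 CPM, whereas Bmf, of the same BH3-only class, fell from 10.0 to 1.91 CPM. The survival gene Mcl1 rose from 245 to 487 CPM.

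Chaperone genes rose as a group, 18 of 23 with 0 lower (median 0.83). Dnajb1, a cytosolic HSP40, was at 60.9 and 52.4 CPM in PEP+/+ IgE, 53.9 and 48.5 CPM in PEP-/- IgE, 646 and 445 CPM in PEP+/+ IgE DNP and 696 and 502 CPM in PEP-/- IgE DNP, with no overlap of groups (3.39 ± 0.09 (SE)). Hspa5, the chaperone BiP of the endoplasmic reticulum, rose from 527 to 1278 CPM. The integrated stress response list gave 9 higher and 2 lower of 19, with its central factor Atf4 (from 187 to 476 CPM) among those higher. Ddit4, an inhibitor of mTORC1 (chromosome 10, 59949669 to 59951834), was at 132 and 119 CPM in PEP+/+ IgE, 150.3 and 180.4 CPM in PEP-/- IgE, 24.6 and 19.7 CPM in PEP+/+ IgE DNP and 32.3 and 28.8 CPM in PEP-/- IgE DNP, clearly lower with antigen (-2.47 ± 0.09 (SE); adjusted p = 1.13e-10), and Sesn2, which also restrains mTORC1, fell from 33.8 to 14.6 CPM. Ribosome biogenesis genes rose in 16 of 42 cases and fell in 0, aminoacyl-tRNA synthetases in 11 of 19 and 0, and ribosomal proteins in 11 of 36 and 0. Over all tested genes 25.1 percent rose and 25.4 percent fell. The medians of these lists, 0.17, 0.21 and 0.20, turned to -0.17, -0.13 and -0.13 with library totals. Rplp0, a common reference gene, was at 1488 and 1458 CPM in PEP+/+ IgE, 1642 and 1498 CPM in PEP-/- IgE, 1660.4 and 1642 CPM in PEP+/+ IgE DNP and 1806 and 1605 CPM in PEP-/- IgE DNP and was not called (0.14 ± 0.07; adjusted p = 0.127), with a sign that turned with library totals. Cholesterol genes went both ways. Of 31 tested 16 rose, including the synthesis enzymes Cyp51 (from 196 to 496 CPM) and Hmgcs1 (from 313 to 733 CPM), and 9 fell, including the synthesis enzyme Dhcr7 (-0.55), the exporter Abcg1 (from 24.5 to 9.96 CPM) and the LDL receptor ligase Mylip (from 35.9 to 13.5 CPM). The list's median of 0.21 was -0.13 with library totals. Glycolysis and hypoxia genes rose in 15 of 29 cases and fell in 4 (median 0.21, -0.13 with library totals), with Pfkfb3, an activator of glycolysis, at 1.23 and Ppp1r3g, a glycogen-targeting subunit, at -4.22. Lysosome genes rose in 14 of 32 cases and fell in 2 (median 0.11, -0.23 with library totals), with the autophagy receptor Sqstm1 far ahead (2.18 ± 0.08). Interferon-stimulated genes gave 7 higher and 7 lower of 24, near the shares of 25.1 and 25.4 percent over all genes. Usp18 and Irf1 fell by 1.83 and 1.43, and Gbp3 and Rsad2 rose by 2.66 and 1.09.

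The genes that gained the most CPM were not those with the largest fold changes. Plek, pleckstrin, a protein kinase C substrate, was at 751 and 306 CPM in PEP+/+ IgE, 613 and 325 CPM in PEP-/- IgE, 5907 and 3184 CPM in PEP+/+ IgE DNP and 5770.2 and 4502 CPM in PEP-/- IgE DNP, up in every pair (3.35 ± 0.14 (SE)). Furin, a proprotein convertase, rose from 1786 ± 341 to 5961 ± 867 CPM (SD, n = 4), and Actb, beta-actin, from 3576 ± 897 to 6540.3 ± 1251 CPM. Sqstm1 rose from 767 ± 25.1 to 3499 ± 374 CPM, Tax1bp1, another autophagy receptor and partner of A20, from 521 ± 98.3 to 2641 ± 309 CPM, and Fam107b from 260.1 ± 80.3 to 2584 ± 177 CPM. Neat1, a nuclear long noncoding RNA, was at 419 and 2352 CPM in PEP+/+ IgE, 446 and 2467 CPM in PEP-/- IgE, 942 and 8179 CPM in PEP+/+ IgE DNP and 811 and 6873 CPM in PEP-/- IgE DNP. It rose in each pair (1.33 ± 0.13), and its level in the lettered set was so much higher that the treatments overlapped. The unnamed transcript Gm26809 rose from 752 to 3888 CPM. Gm13341, a pseudogene of a mitochondrial gene, rose from 9733 to 12260 CPM with overlapping groups and turned to a lower level with library totals. All 37 mitochondrially encoded genes of the files had 0 reads, and whether reads of the parent gene were counted on Gm13341 was not tested. The losses of most CPM were those of Kit and Il4ra, given above, Prnp (from 1763 to 1375 CPM), Rsrp1 (from 772 to 401 CPM), Pik3cd, P2rx7, Ndst2, Ivns1abp (from 1091 to 866 CPM), Scd2 (from 750.4 to 544 CPM) and Cited2 (from 326 to 139.8 CPM).

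The largest decreases among genes of at least 10 CPM were far smaller than the largest increases. Abhd15, which encodes a protein with a hydrolase fold, was at 17.9 and 8.62 CPM in PEP+/+ IgE, 25.7 and 11.6 CPM in PEP-/- IgE, 2.41 and 1.27 CPM in PEP+/+ IgE DNP and 3.92 and 0.959 CPM in PEP-/- IgE DNP, all lower with antigen (-2.96 ± 0.17 (SE)). It overlaps Taok1 and Trp53i13 on the other strand, and the sources used here do not say whether strand was used in counting. It was followed by Ddit4, the chloride channel gene Tmem206 (-2.44), Bmf, the Polycomb gene Cbx8 (-2.31) and Pik3ip1, an inhibitor of PI3 kinase. Pik3ip1 was at 100 and 90.0 CPM in PEP+/+ IgE, 147 and 156 CPM in PEP-/- IgE, 15.6 and 24.6 CPM in PEP+/+ IgE DNP and 28.1 and 31.5 CPM in PEP-/- IgE DNP, with no overlap (-2.31 ± 0.10). Zbtb5, Fam84b, the corepressor Cbfa2t3 and Gramd1c completed the 10, at -2.21, -2.14, -2.04 and -2.03.

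The strongly induced coding genes were shorter than typical. The median span was 13.5 kb for those that rose by at least 3, 20.8 kb for those that rose by at least 1, 18.1 kb for those that fell by at least 1 and 23.7 kb for all tested coding genes. The median number of exons was 6, 7, 6.5 and 9. ATTTATTTA, an AU-rich element found in unstable cytokine mRNAs, occurred in 10.8, 8.86, 7.29 and 6.75 percent of their 3′ untranslated regions, and at 1.08, 0.712, 0.519 and 0.513 copies per 10 kb. Csf2 carried 5 copies in 317 bases, and Tnf and Ptgs2 carried 2 each. Other induced genes such as Il6, Il13, Il9 and Ccl4 carried 0. Ikbkg, which was not called, carried 3, and Rab3a, which fell, carried 2. Some genes that rose by at least 1 lay side by side, in 27 runs of at least 3 neighbouring tested genes, holding 90 genes. The number of runs to be had by position alone from 7.33 percent of tested genes was not computed. Certain runs hold antisense partners (Kdm6b and Kdm6bos) or copies of a gene family (Gzme, Gzmd and Gzmc), whose reads may be shared. On chromosome 11, from 81985406 to 82305690, lie Gm11419, Ccl2, Ccl7 and Ccl1. On chromosome 13, from 56438355 to 56639562, lie Slc25a48, Il9, Fbxl21, Lect2 and Tgfbi. On chromosome 17, from 57105325 to 57228136, lie Tnfsf9, Tnfsf14 and C3. On chromosome 2, from 129299610 to 129375748, lie Il1a, Il1b and its antisense transcript Il1bos.

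No gene responded differently to antigen between the genotypes at an adjusted p below 0.05 (0 of 12709, 0 percent) in edgeR, with 268 genes at an unadjusted p below 0.05, and DESeq2 called 0 with 111. This does not show that the responses were alike. The 931 genes that rose by at least 1 had a median rise of 1.53 in PEP+/+ and 1.58 in PEP-/- cells. Tnf differed by -0.01 ± 0.34 (SE, PEP-/- minus PEP+/+, log2; adjusted p = 1) and Il13 by -0.62 ± 0.21 (adjusted p = 1, unadjusted p = 0.0129 in edgeR). The lower PEP-/- levels of both were present under IgE already. For Il13 the gap was wider with antigen, with a mean log2 difference of 6.955 in PEP+/+ and 6.28 in PEP-/- cells. Csf2, with 1 read in IgE, was at 8.38 and 22.0 CPM in PEP+/+ IgE DNP and 3.34 and 7.84 CPM in PEP-/- IgE DNP. The smallest p was that of Myc, a growth-promoting transcription factor, at 21.1 and 51.4 CPM in PEP+/+ IgE, 11.7 and 16.3 CPM in PEP-/- IgE, 60.5 and 62.8 CPM in PEP+/+ IgE DNP and 62.4 and 79.6 CPM in PEP-/- IgE DNP. It rose by 1.57 over both genotypes, and the genotype difference was 1.49 ± 0.31 (adjusted p = 1).

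The response differed between the replicate sets for 38 of 12709 genes (0.299 percent), and the log2 difference between antigen and IgE was the higher one in the lettered set for 36 of them and in the numbered set for 2, Vegfa and Cdca7. This count and its direction rested on single samples. Without the lettered PEP+/+ IgE or PEP-/- IgE sample 7 and 4 genes passed. Without the numbered PEP-/- IgE DNP sample 29 passed, 12 higher and 17 lower in the lettered set, without the lettered PEP-/- IgE DNP sample 18 and 11, and without the numbered PEP-/- IgE sample 26 and 13. Ube2v2, a ubiquitin-conjugating enzyme variant, was at 27 and 49.4 CPM in PEP+/+ IgE, 33.2 and 59.5 CPM in PEP-/- IgE, 78 and 688 CPM in PEP+/+ IgE DNP and 49.3 and 804 CPM in PEP-/- IgE DNP. It rose more in the lettered set, with a difference of 2.69 ± 0.25 (SE, log2; adjusted p = 0.000163). Slco4a1 (1.52 ± 0.14), Hipk2 (1.63 ± 0.16), Vmp1 (1.66 ± 0.20) and Phldb1 (1.69 ± 0.21) followed, and Vmp1 shares its strand and position with Mir21a. The median rise of the 931 genes was 1.43 in the numbered and 1.72 in the lettered set, and 754 of them (81.0 percent) rose more in the lettered set. The share of reads outside any gene was 5.02 to 7.18 percent in the numbered and 8.58 to 9.17 percent in the lettered samples, and its part in this was not tested.

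**Figure D4:**
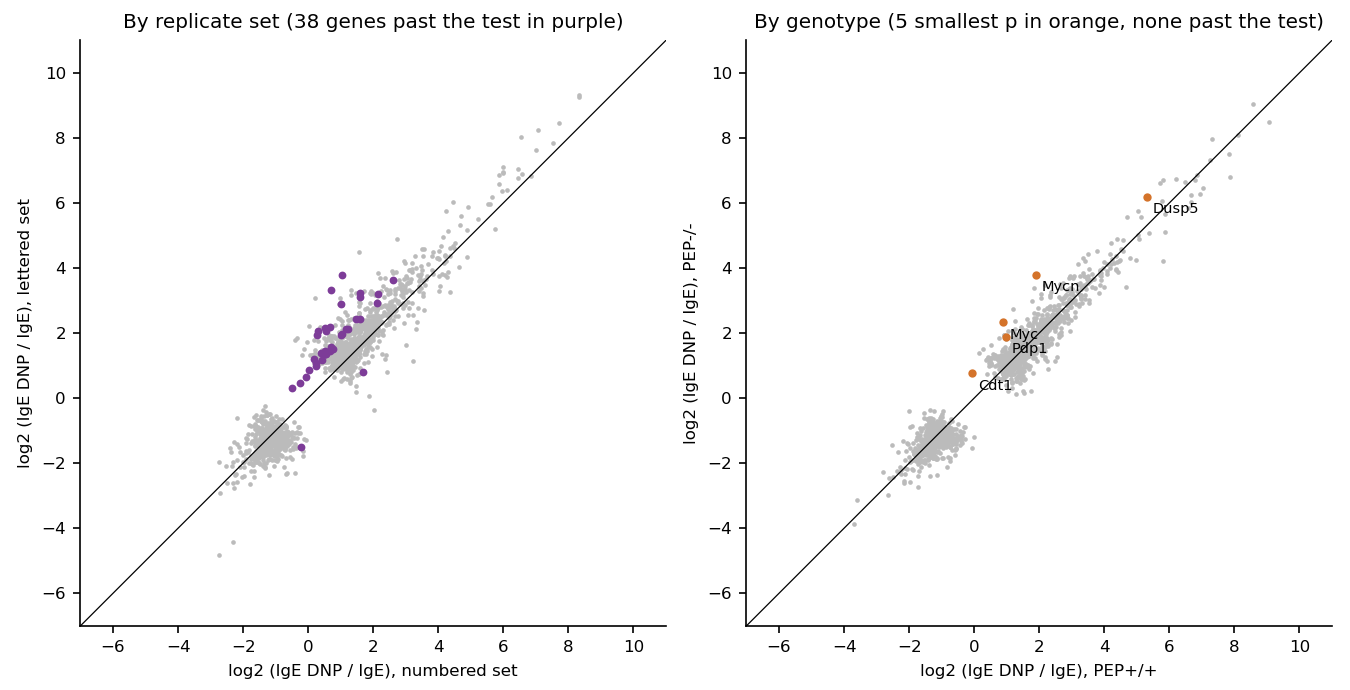
Mean log2 difference, IgE DNP against IgE, of the 1543 genes called with an absolute log2 fold change of at least 1, in the numbered set (x) against the lettered set (y) at left and in PEP+/+ (x) against PEP-/- (y) at right, with the line of equality. The 38 genes past the test between sets (purple) lie mostly above the line, and the 5 genes with the smallest p between genotypes (orange) did not pass theirs.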

How the data were processed

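RNA-seq of 8 of the 16 BMMC samples was analysed. Alignment by the authors used TopHat2 (build GRCm38), HTSeq then assigned the reads to genes, and the deposited values are raw counts for 39179 genes per sample. The strand setting of the counting is not given in the sources used here. Rows for reads outside genes (5.02 to 9.17 percent), ambiguous reads (2.04 to 2.50 percent) and reads with several alignments (21.5 to 31.5 percent) were left out. Names came from GENCODE M21 and covered 96.2 percent of the gene rows.

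Counts were filtered with filterByExpr (minimum count 10), scaled by TMM and tested with edgeR 4.0.16 (quasi-likelihood) in R 4.3.3, with treatment, genotype and replicate set as terms. Benjamini-Hochberg adjustment covered all 12709 tested genes, and 0.05 was the threshold. Differences between sets or genotypes were interaction terms with 3 residual degrees of freedom. Depth was 9637647 to 20547141 counts, and intervals cover counting error only. Where IgE had no read, the floor was 3 reads over the 4 libraries. The script was tested on simulated data. The number or letter in the titles paired samples: same-set deviations from the condition means correlated at 0.734 to 0.785 in every pair of conditions.

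The text names the genes the study names, the 10 largest increases and decreases (at least 10 CPM in the higher group and the same direction in all 4 pairs), the 10 largest gains and losses of CPM, leading called members of each list (at least 5 CPM) with others needed to account for the list, and the 5 smallest p of each interaction. Members and lists were chosen with earlier results of these data known. Alternatives were another scaling, DESeq2 1.42.0, other filters, a fold threshold, no replicate block, all 16 samples, each genotype or set alone and each sample left out. Some items are not reported here.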

Additional observations from a re-analysis of the deposited data

Results flagged for a closer look

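In 15 of 538 groups of 4 samples tested, 1 sample lay apart from the other 3 by Dixon's criterion, and chance alone gives about 1 in 20. In the IgE group, Csf2 was at 0.0927 CPM in PEP-/- replicate 1 and Il33 at 0.0747 CPM in PEP+/+ replicate 1, each a single read where the other samples had 0. Ccl4 was at 3.85 CPM in PEP-/- replicate 2 (others 4.91 to 5.07), Tnip3 at 0.464 CPM in PEP-/- replicate 1 and Cd200r3 at 516 CPM in PEP-/- replicate 2. Map3k8 was at 7.38 CPM (others 2.69 to 3.06) and Hspa5 at 758 CPM (others 420.0 to 467) in PEP+/+ replicate 2, and Spry2 at 4.48 CPM in PEP+/+ replicate 1. In the IgE DNP group, Tax1bp1 was at 2183 CPM, Ppp1r3b at 18.6 CPM and Id2 at 929 CPM in PEP+/+ replicate 2. In PEP-/- replicate 1, Egr2 was at 45.2 CPM (others 62.3 to 65.0), Pdcd1lg2 at 20.8 CPM and Gfi1 at 5.67 CPM. Myc was at 79.6 CPM in PEP-/- replicate 2 (others 60.5 to 62.8).

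The antigen response differed between the replicate sets for 38 genes by an interaction term. The differences, lettered minus numbered on the log2 scale, were 2.69 for Ube2v2, 1.69 for Phldb1, 1.66 for Vmp1, 1.63 for Hipk2 and 1.52 for Slco4a1.

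Reads that aligned to more than 1 place, which entered no comparison, took 4.42 percentage points more of all reads in IgE DNP than in IgE on average over the 4 pairs. The share was higher with antigen in each pair, from 21.5 to 31.5 percent in PEP+/+ replicate 1, 25.6 to 27.6 percent in PEP+/+ replicate 2, 22.8 to 24.0 percent in PEP-/- replicate 1 and 24.6 to 29.1 percent in PEP-/- replicate 2. Which sequences these reads came from was not tested.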

How the results depend on the processing

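The count of 6412 changed genes ranged from 5253 to 6022 with 1 sample left out (2629 to 2980 higher, 2624 to 3127 lower). Without the replicate block it was 2370 (1293 higher, 1077 lower), and in PEP+/+ cells alone 3851 (2031 higher, 1820 lower). With a log2 fold change of at least 1 it was 1543 (931 higher, 612 lower). Scaling by library totals, an alternative chosen after seeing the data, gave 1503 higher and 7032 lower genes. It also turned the sign of Rplp0 (-0.20), Gm13341 (-0.0682), Rps28 (-0.0515), Rpl23 (-0.0772), Rps19 (-0.0793), Rpl38 (-0.0821), Ccr3 (-0.0351), Vwf (-0.0920), Cdt1 (-0.00626), Cma1 (-0.0884), Cpa3 (-0.17), Fcer1a (-0.27) and Tpsb2 (-0.0578). In PEP+/+ cells alone Cdt1 was at -0.10, and in PEP-/- cells alone Ltc4s was at 0.0800. Of 266 named genes, 53 lost their call without the replicate block and none turned sign, 8 lost it with library totals and 1 with DESeq2. With all 16 samples in the fit 4472 genes were called, and 26 of 263 named genes lost their call. The genotype interaction called 27 genes without a filter on low counts (9 larger, 18 smaller in PEP-/-) and 0 to 4 with 1 sample left out. The interaction with the replicate set called 231 genes without that filter, 60 in DESeq2 and 4 to 46 with 1 sample left out, with 7 without the lettered PEP+/+ IgE sample and 4 without the lettered PEP-/- IgE sample. The cause of these changes was not tested. With 4 residual degrees of freedom and low counts of silent genes, folds of genes under 3 reads in IgE are limited by depth.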
